A study of Glycine max with 8 samples.

Results

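The vegetative storage protein gene VSPA and the lipoxygenase genes VLXB, VLXC and LOXB1 were followed through 4 stages of pod and seed development in soybean (Glycine max, cultivar Tamahomare). They were taken as every soybean probe set whose only gene in the array's probe-to-gene table is one of these 4 genes. This gave 15 probe sets, 8 for VSPA, 2 for VLXB, 1 for VLXC and 4 for LOXB1, out of 8677 soybean probe sets with 1 named gene, which stand for 6029 genes. The stages were pods at the start of pod elongation, pods together with their beans when the beans were 2 mm long, beans 5 mm long, and fully grown beans that were still green. There were 2 arrays a stage, 8 in all, each hybridised with RNA of this cultivar with no stated treatment. Separate plants are not stated as the source of the 2 arrays of a stage, and the p-values below therefore measure the spread between arrays, which may be technical. The tissue changed with the stage, from pod alone to pod with bean to bean alone, so stage and tissue cannot be told apart here. In such whole-tissue RNA, fewer cells of a type and less RNA per cell cannot be told apart either.

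Vegetative storage proteins are vacuolar glycoproteins that soybean leaves, stems and pod walls accumulate as a temporary store of amino nitrogen and give up when seeds fill. Their genes are known to respond to jasmonate, wounding and the removal of pods, and in leaves the proteins accumulate in cells that include the paraveinal mesophyll, a cell layer of the leaf. Lipoxygenases add oxygen to polyunsaturated fatty acids, a step that opens the path to jasmonate and other oxylipins, and several of the vegetative lipoxygenases accumulate in the same cell layer as the storage proteins. The reference annotation lists VSP25 as another name of VSPA, and L-4, LOX4 and VSP94 as other names of LOXB1, which has thus itself been named as a vegetative storage protein. It lists lox8 and loxB2 for VLXB. In gene order, LOXB1 lies directly between LOX1.1, a seed lipoxygenase gene, and LOX7, with LOX2 on the far side of LOX1.1, and LOX3 is the second protein-coding gene from VLXB.

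The values below are scaled signals, the deposited array intensities after each array was brought to an equal median over the tested probe sets. A probe set counted as above background on an array if its signal was over the 95th percentile of that array's oomycete and nematode probe sets, which measure no soybean transcript. That level lay between 6.46 and 7.68 on the 6 arrays of the first 3 stages and at 18.4 and 21.4 on the arrays of fully grown beans. A probe set was tested when it was above background on at least 2 of the 8 arrays, which held for 14 of the 15 members and for 33625 of 37641 soybean probe sets. Changes are differences of log2(scaled signal + 16), which understate the change of dim probe sets, and a change is called when its limma p-value, adjusted over all 33625, is below 0.05. Levels are compared across stages within a probe set only, since different probe sets bind their targets with different strength.

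All 4 genes were highest in elongating pods and lower at every later stage. In the probe set with the highest mean over the 8 arrays of each gene, all 4 were called lower in 2 mm, in 5 mm and in fully grown beans than in elongating pods. Among the 14 tested probe sets, 12 were called lower and 0 higher in 2 mm beans with pods against elongating pods, where 20.4% of all tested probe sets were called lower and 26.5% higher. The counts against elongating pods were also 12 lower and 0 higher in 5 mm beans, where 18.7% of all were called lower and 21.3% higher, and 12 lower and 0 higher in fully grown beans, where 24.9% were called lower and 37.3% higher. Their median log2 changes were -1.98, -3.71 and -3.88 in these comparisons, against 0.09, 0.09 and 0.18 over all tested probe sets. The shares in fully grown beans against elongating pods over all tested probe sets depended on the scaling: 64.9% were called lower and 6.68% higher on the values as deposited, and 88.7% lower and 2.65% higher with arrays scaled to the 9 hybridization control probe sets, and all 14 members were called lower under both. The median change of the members was then -4.60 and -5.32, against -0.76 and -1.49 over all tested probe sets. In 2 mm beans with pods against elongating pods, the values as deposited gave 11 members called lower and 1 higher. There 11.7% of all tested probe sets were called lower and 60.9% higher. The 3 comparisons against elongating pods share the elongating pod arrays. Several dim members passed the filter mainly through those arrays and had to differ in that direction, so the counts describe the members and are no support of their own.

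Among the later stages fewer members were called on the scaled arrays. In 5 mm beans against 2 mm beans with pods, 3 of the 14 were called lower and 0 higher, where 9.37% of all tested probe sets were called lower and 9.26% higher. These 3 were both VLXB probe sets and the brightest LOXB1 probe set, and no member was called without either 5 mm array, while 6 were called without either fully grown array. In fully grown against 5 mm beans, 3 of 14 were called lower, both VLXB probe sets and the VLXC probe set, where 20.5% of all were called lower and 31.6% higher. In fully grown beans against 2 mm beans with pods, 6 were called lower, where 23.6% of all were called lower and 31.2% higher. These were both VLXB probe sets, VLXC, 2 LOXB1 probe sets and the dim VSPA probe set GmaAffx.63840.1.S1_at. Of these, GmaAffx.63840.1.S1_at and the LOXB1 probe set GmaAffx.89726.1.A1_s_at had 2 mm signals of at most 17.3, under the background of the fully grown arrays, where both were not above background, so a lower level in fully grown beans cannot be read from them. The count of 6 was 9 without array 1 and 3 without array 2 of the 2 mm stage. On the values as deposited, the counts of members called lower in these 3 comparisons were 11, 7 and 13 of 14, where 70.6%, 59.1% and 84.9% of all tested probe sets were called lower. With control scaling they were 7, 11 and 13, where 18.6%, 84.3% and 86.4% of all were. Of the counts as deposited and with control scaling, all but the 7 in 5 mm against 2 mm beans with control scaling lie near the share over all tested probe sets.

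In the brightest probe set of each gene, the fall over the whole course was called in each alternative run, but its size moved with the scaling. In fully grown beans against elongating pods the log2 change ranged from -5.93 to -2.84 for VSPA, from -7.95 to -6.13 for VLXB, from -7.32 to -5.24 for VLXC and from -6.25 to -3.64 for LOXB1. The largest fall of each gene came with scaling to the hybridization controls.

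**Figure D1:**
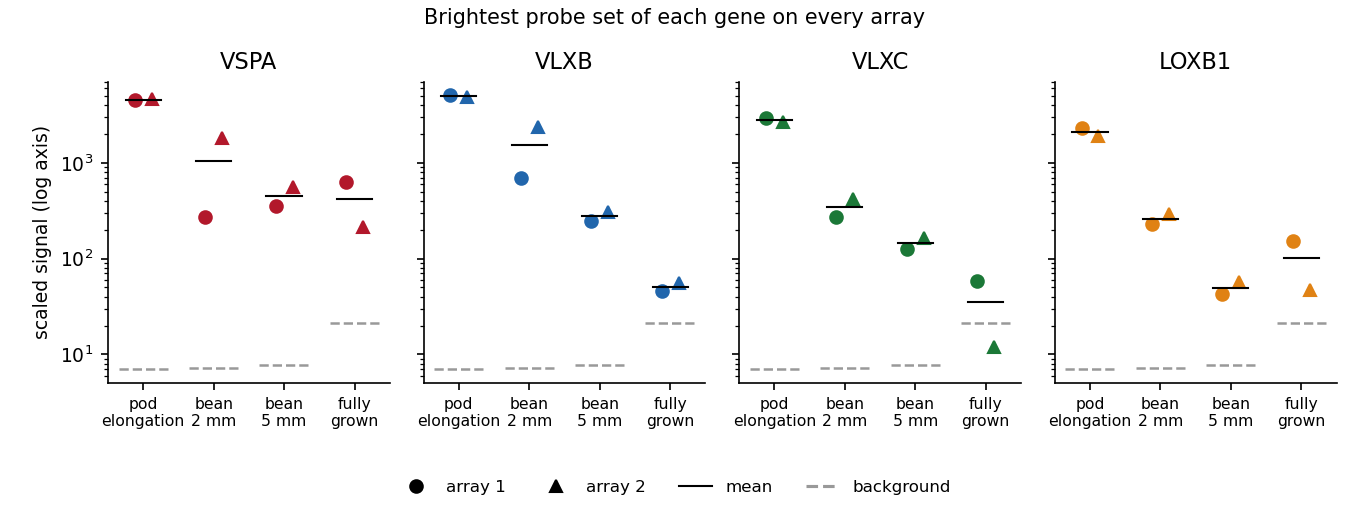
Scaled signal (log axis) of the brightest probe set of VSPA, VLXB, VLXC and LOXB1 on each of the 8 arrays, with circles for array 1, triangles for array 2, a black line for the mean and a dashed grey line for the higher of the 2 background levels of the stage. In each panel both elongating pod arrays lie above all 6 later arrays, and the 2 arrays of 2 mm beans with pods lie far apart for VSPA (274 and 1812).

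VSPA encodes the alpha subunit of the vegetative storage protein. Its probe set with the highest mean, GmaAffx.89772.6.A1_s_at, had 4500 and 4635 in elongating pods, 274 and 1812 in 2 mm beans with pods, 351 and 560 in 5 mm beans, and 626 and 213 in fully grown beans. Both elongating pod arrays stood above all others, and the 3 later stages overlapped one another. The log2 change was -2.66 ± 0.75 (SE) in 2 mm beans with pods against elongating pods, 6.30-fold lower (adjusted p = 0.0177). It was -3.32 ± 0.75 in 5 mm beans (adjusted p = 0.00743) and -3.58 ± 0.75 in fully grown beans (adjusted p = 0.0027), each against elongating pods. Among the later stages the changes were -0.66 in 5 mm against 2 mm beans (adjusted p = 0.577), -0.26 in fully grown against 5 mm beans (adjusted p = 0.793) and -0.92 in fully grown against 2 mm beans (adjusted p = 0.322). The last was -2.25 without array 1 of 2 mm beans (adjusted p = 0.0103), and on the values as deposited all 3 were called lower, at -1.59, -1.41 and -3.0. With scaling to the hybridization controls fully grown beans were called lower than 5 mm beans (-2.36, adjusted p = 4.15e-05) and than 2 mm beans (-3.17, adjusted p = 6.82e-07). Without array 2 of 2 mm beans, the changes against that stage were 0.67 in 5 mm beans and 0.40 in fully grown beans, so no direction can be given for them. The call in 2 mm beans with pods was lost without array 1 of that stage, where the change was -1.33 (adjusted p = 0.0921), and without either elongating pod array (adjusted p = 0.0809 and 0.0836). The call in 5 mm beans was lost without array 2 of elongating pods, where the adjusted p lay just above 0.05, and without array 1 of 5 mm beans (adjusted p = 0.0556).

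A pair of other bright VSPA probe sets gave larger differences that no left-out array took below the threshold. GmaAffx.89772.17.S1_s_at had 5215 and 5332 in elongating pods, 57.1 and 514 in 2 mm beans with pods, 147 and 249 in 5 mm beans, and 200 and 54.6 in fully grown beans. Its change in fully grown beans against elongating pods was -5.42 ± 0.81, 42.9-fold lower (adjusted p = 0.000364). Gma.5793.1.S1_s_at had 4077 and 4098 in elongating pods, 72.0 and 641 in 2 mm beans with pods, 107 and 177 in 5 mm beans, and 247 and 59.7 in fully grown beans, a change of -4.86 ± 0.83 between the outer stages (adjusted p = 0.000858). Over the arrays left out and the other settings, the change in 2 mm beans with pods against elongating pods ranged from -6.18 to -3.32 for the first of these and from -5.54 to -2.64 for the second, and both remained called.

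The elongating pod values of these VSPA probe sets, and of both VLXB probe sets described below, lay near the top of their arrays. The highest scaled signal of any tested soybean probe set there was 5356 and 5392, against 25472 and 27083 on the arrays of fully grown beans. Whether the signal in pods was held down by a ceiling was not tested, and the folds of the VSPA and VLXB probe sets against elongating pods carry that limit.

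GmaAffx.89772.6.S1_s_at, a design to the opposite orientation of the same source sequence as the first VSPA probe set, was dimmer, with 197 and 306 in elongating pods, 26.3 and 142 in 2 mm beans with pods, 43.3 and 55.5 in 5 mm beans, and 60.4 and 29.2 in fully grown beans. Its log2 changes against elongating pods were -1.68, -2.01 and -2.16 in the 3 later stages (adjusted p = 0.0278, 0.0151 and 0.0063). Each of these 3 calls was lost without array 2 of elongating pods, where the adjusted p was 0.164, 0.113 and 0.0549. The 4 bright VSPA probe sets followed one another closely, with Pearson correlations of 0.978 to 0.992 between the first and the other 3 over the 8 arrays. All 4 have the suffix _s_at, which marks probes that match more than 1 transcript, so their signal can hold transcripts of related genes.

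The remaining 4 VSPA probe sets gave little signal. GmaAffx.89772.7.A1_at, a design without the shared suffix, had 31.1 and 50.4 in elongating pods and 2.75 and 9.39 in 2 mm beans with pods, and lay at or below background on all 4 later arrays. Its level was at least 5.45-fold lower in 5 mm beans (adjusted p = 0.00093) and at least 2.00-fold lower in fully grown beans (adjusted p = 0.0015) than in elongating pods, each bound taken against the background level of the dim stage. GmaAffx.89772.7.A1_s_at had 18.6 and 25.1 in elongating pods and at most 16.5 on any later array. GmaAffx.63840.1.S1_at did not follow the others: it had 11.6 and 13.3 in elongating pods, 14.3 and 17.3 in 2 mm beans with pods, and was at or below background on all 4 later arrays, with a correlation of 0.40 to the brightest probe set. GmaAffx.33787.1.S1_at was above background on 0 of the 8 arrays and was not tested.

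**Figure D2:**
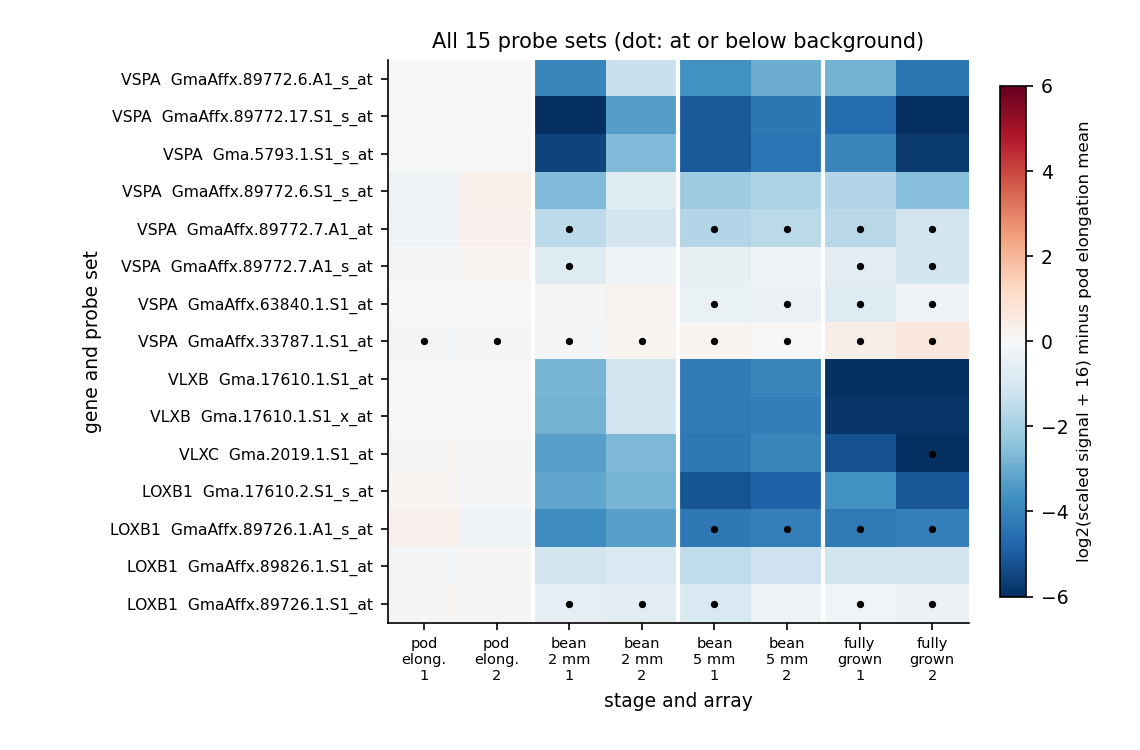
Difference of log2(scaled signal + 16) from the elongating pod mean of the same probe set, for all 15 member probe sets (rows) on the 8 arrays (columns), with a black dot where the signal was at or below background and with the colours ending at 6 on either side. Blue cells fill the later stages of the 4 bright VSPA probe sets, both VLXB probe sets, VLXC and the brighter LOXB1 probe sets, and the palest rows are those with signals near background.

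VLXB, a vegetative lipoxygenase gene, fell at each step. Gma.17610.1.S1_at had 5092 and 4890 in elongating pods, 703 and 2347 in 2 mm beans with pods, 244 and 309 in 5 mm beans, and 46.3 and 55.3 in fully grown beans, and no array overlapped with the next stage. The log2 changes were -1.94 ± 0.43 in 2 mm beans with pods against elongating pods (adjusted p = 0.00579), -2.16 in 5 mm against 2 mm beans (adjusted p = 0.0115) and -2.13 in fully grown against 5 mm beans (adjusted p = 0.00312). Over the whole course the level in fully grown beans was 75.1-fold lower than in elongating pods (log2 change -6.23, adjusted p = 3.46e-06), a change that 0.0862% of all tested probe sets equalled or passed. The step between 2 mm and 5 mm beans was not called without array 1 of 5 mm beans (adjusted p = 0.0721) or without array 2 (adjusted p = 0.0671).

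The other VLXB probe set, Gma.17610.1.S1_x_at, carries a suffix that marks probes with possible cross-hybridisation. It had 5002 and 4819 in elongating pods, 670 and 2143 in 2 mm beans with pods, 247 and 263 in 5 mm beans, and 71.1 and 68.4 in fully grown beans. The correlation with the first was 0.997 over the 8 arrays, and it too was called lower in all 6 comparisons. In fully grown beans its level was 57.4-fold lower than in elongating pods.

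VLXC, a further vegetative lipoxygenase gene with 1 probe set, Gma.2019.1.S1_at, was called lower in the first and in the last step. It had 2951 and 2686 in elongating pods, 276 and 416 in 2 mm beans with pods, 127 and 166 in 5 mm beans, and 59.1 and 12 in fully grown beans, the last value below background. The stages did not overlap. The change was -3.0 ± 0.39 in 2 mm beans with pods against elongating pods (adjusted p = 0.000347), and -1.14 in 5 mm against 2 mm beans, which was not called (adjusted p = 0.0742). That step was called without either fully grown array (adjusted p = 0.0037 and 0.00361), with the deposited values unscaled (-2.05, adjusted p = 1.38e-06) and with scaling to the hybridization controls (-1.29, adjusted p = 0.000191). In fully grown against 5 mm beans the change was -1.82 (adjusted p = 0.00423), and in fully grown beans against elongating pods it was -5.95, or 61.8-fold lower (adjusted p = 2.57e-06).

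LOXB1 fell in the first 2 steps in its brightest probe set. Gma.17610.2.S1_s_at had 2300 and 1927 in elongating pods, 228 and 292 in 2 mm beans with pods, 42.8 and 56.4 in 5 mm beans, and 155 and 47.1 in fully grown beans. The last 2 stages overlapped, with 1 fully grown array between the 5 mm arrays and the other above them. The level was 7.73-fold lower in 2 mm beans with pods than in elongating pods (log2 change -2.95 ± 0.38, adjusted p = 0.000323), 4.21-fold lower in 5 mm than in 2 mm beans (adjusted p = 0.0084) and 20.4-fold lower in fully grown beans than in elongating pods (log2 change -4.35, adjusted p = 1.34e-05). The step between 2 mm and 5 mm beans was lost without array 2 of 2 mm beans (adjusted p = 0.0689) and without either 5 mm array (adjusted p = 0.0569 and 0.054). In fully grown beans against 2 mm beans with pods the change was -1.40 (adjusted p = 0.0122), and it was lost without array 2 of 2 mm beans (adjusted p = 0.0754).

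No direction can be given for LOXB1 in fully grown against 5 mm beans. The change was 0.67 (adjusted p = 0.17), 1.39 without array 2 of fully grown beans (adjusted p = 0.000483), -0.05 without array 1, -0.25 without scaling and -0.94 when arrays were scaled to the hybridization controls (adjusted p = 0.00149).

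The other LOXB1 probe sets also had their highest values in elongating pods. GmaAffx.89726.1.A1_s_at had 374 and 249 in elongating pods, 8.19 and 17.3 in 2 mm beans with pods, and lay below background in 5 mm and in fully grown beans. Its level was 11.3-fold lower in 2 mm beans with pods (adjusted p = 7.37e-06), at least 42.0-fold lower in 5 mm beans (adjusted p = 2.3e-06) and at least 15.4-fold lower in fully grown beans (adjusted p = 1.04e-06) than in elongating pods. GmaAffx.89826.1.S1_at, above background on all 8 arrays, had 65.9 and 76.7 in elongating pods, 24.6 and 31 in 2 mm beans with pods, 14.7 and 20.5 in 5 mm beans, and 21.8 and 24.2 in fully grown beans, and was called lower in each later stage than in elongating pods. GmaAffx.89726.1.S1_at was above background on 3 arrays, both of elongating pods (16.7 and 14.3) and 1 of 5 mm beans (9.33). Its pod values lay under the background of the fully grown arrays (18.4 and 21.4). A lower level in fully grown beans therefore cannot be read from it (-0.28, adjusted p = 0.293). This probe set passed the threshold narrowly in 2 mm and 5 mm beans against elongating pods (adjusted p = 0.0489 and 0.0475), and both calls were lost with the replicate number as a block (adjusted p = 0.0647 and 0.0635). Both were also lost without either elongating pod array or either 2 mm array, where the adjusted p ranged from 0.0758 to 0.194.

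VLXB and LOXB1 share the source number Gma.17610 on the array, and the brightest LOXB1 probe set has the shared suffix. Their brightest probe sets did not run together between arrays of 1 stage: in 2 mm beans with pods array 2 was 3.34 times array 1 for VLXB and 1.28 times for LOXB1. Another probe set, GmaAffx.93553.1.S1_s_at, is annotated to VLXB, LOX7 and LOXB1 together and is therefore no member. It had 3574 and 3279 in elongating pods, 493 and 549 in 2 mm beans with pods, 446 and 455 in 5 mm beans, and 39.2 and 17 in fully grown beans. Between the 4 brightest probe sets of the genes, the Pearson correlation over the 8 arrays lay between 0.838, for VSPA and VLXB, and 0.955, for VLXB and VLXC, over arrays that share their scaling.

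The 2 arrays of 2 mm beans with pods differed widely in VSPA and VLXB. The ratios below are of scaled signals. Array 1 had a deposited median of 138 and array 2 of 111, with hybridization controls at 838 and 839. The scaling thus raised array 2 relative to array 1, and small ratios depend on it. Array 2 was 6.62 times array 1 for the first VSPA probe set, 9.01, 8.89 and 5.39 times for the other bright ones, 3.34 and 3.20 times for the VLXB probe sets, 1.51 times for VLXC and 1.28 times for the brightest LOXB1 probe set. A difference as large as that of the first VSPA probe set on the log2 scale occurred in 0.0357% of all tested probe sets at this stage, one as large as VLXB's in 0.119%, and one as large as LOXB1's in 14.7%. Elongating pods showed no such difference, with array 2 at 1.03 times array 1 for VSPA and 0.96 times for VLXB.

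On the scaled arrays, other probe sets far lower in 5 mm beans than in elongating pods mostly moved in the same direction between these 2 arrays. The share and median below depend on the scaling and were not computed on the values as deposited. Of 455 other tested probe sets called at least 8-fold lower in 5 mm beans than in elongating pods, 369 (81.1%) were higher on array 2 than on array 1 of 2 mm beans with pods, with a median log2 difference of 0.34, against 49.6% and a median of 0.00 over all tested probe sets. The summed signal of 5 green tissue markers, a light-harvesting protein gene and 4 Rubisco activase genes, was 2308 on array 1 and 3068 on array 2. As deposited it was 4424 and 4730. The 5 pod and flower organ markers summed to 2393 on array 1 and 2514 on array 2, but to 4587 and 3876 as deposited, so they give no direction. Of them, AGL1L (1751 and 1829) and AGL3L (388 and 399) were nearly level, SEP1 had 243 and 236, AP1A had 9.45 and 40.4, and AG1 had 0.77, below background, and 8.98. The part of pod tissue in this difference was not tested.

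In fully grown beans array 1 was the higher one for VSPA, VLXC and LOXB1. On the log2(scaled signal + 16) scale array 1 exceeded array 2 by 2.80-fold for VSPA, 2.68-fold for VLXC and 2.71-fold for LOXB1. Differences as large occurred in 0.535%, 0.672% and 0.648% of all tested probe sets. VLXB did not share it, with 46.3 on array 1 and 55.3 on array 2. The green markers summed to 4194 and 5320 on these arrays, and the embryo markers to 12056 and 13195. The ratio of the 3′ to the 5′ actin control was 2.73 and 4.80 on the 2 arrays of fully grown beans, 2.05 and 2.09 in elongating pods, 3.64 and 3.60 in 2 mm beans with pods, and 2.07 and 2.22 in 5 mm beans. The part of RNA quality in these values was not tested.

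**Figure D3:**
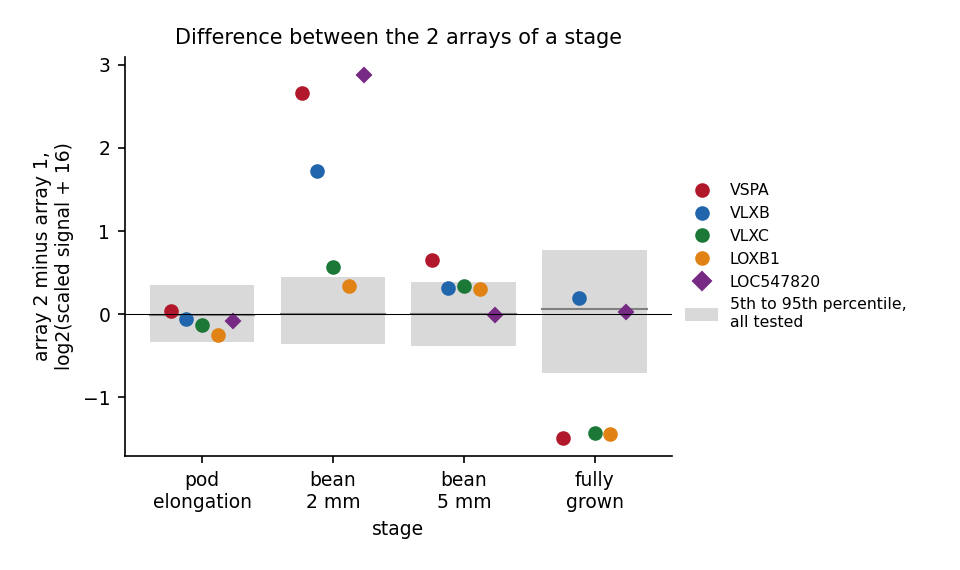
Array 2 minus array 1 of each stage in log2(scaled signal + 16), for the brightest probe set of each of the 4 genes (circles) and for LOC547820 (diamonds), with a grey band from the 5th to the 95th percentile of all tested probe sets and a grey line at their median. VSPA, VLXB and LOC547820 lie far above the band in 2 mm beans with pods, and VSPA, VLXC and LOXB1 lie below it in fully grown beans.

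Markers of the tissues were read on each array. The embryo markers FAD2-1A, LEC1-A and WRI1B, a seed desaturase and 2 regulators of embryo and oil development, were below background in elongating pods, where their sum was 7.76 and 6.66, against 343 and 242 in 2 mm beans with pods, 1640 and 2242 in 5 mm beans, and 12056 and 13195 in fully grown beans. From 5 mm to fully grown beans only FAD2-1A among them was called higher, from a mean of 934 to 12250. LEC1-A was called lower in that step (819 to 227, log2 change -1.78), and WRI1B was not called (188 to 148). SCB1, HPS and ANR1, taken by symbol as seed coat markers, summed to 1311 and 1102 in elongating pods and to between 7170 and 10446 on the 6 later arrays. They did not run together. HPS was called lower in 2 mm beans with pods than in elongating pods (8.12 and 5.93 against 148 and 174). In fully grown beans HPS had 8382 and 8000, SCB1 had 499 and 921 after 5482 and 5926 in 5 mm beans, and ANR1 was below background. The sum in fully grown beans was thus mostly HPS. As deposited the seed coat sum was 13747 and 13402 in 2 mm beans with pods and 3627 and 2995 in fully grown beans. The green markers summed to 7996 and 7868 in elongating pods, 2308 and 3068 in 2 mm beans with pods, 4588 and 5275 in 5 mm beans, and 4194 and 5320 in fully grown beans. On the values as deposited those sums were 8120 and 7948 in elongating pods, 4424 and 4730 in 2 mm beans with pods, 4103 and 4628 in 5 mm beans, and 1711 and 1785 in fully grown beans. The green sum was thus lower in 2 mm beans with pods than in elongating pods on either scale, as most member probe sets were, and its later course depended on the scaling. The light-harvesting gene CAB3 (5356 and 5392 in elongating pods) made up most of the sum. On the scaled arrays 4 of the 5 green markers were called lower in that first step, and RCA11 was not (-0.38, adjusted p = 0.112). The part of green tissue in the members' changes was not tested.

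The second subunit of the storage protein has no probe set under a VSP symbol. LOC547820, for which the reference annotation lists VSP27 and VSPB as other names, was looked up after the VSPA values had been seen. Its brightest probe set, Gma.1822.1.S1_s_at, has the shared suffix, so its signal can hold transcripts of related genes. It had 3661 and 3467 in elongating pods, 11.1 and 183 in 2 mm beans with pods, 95.3 and 94.1 in 5 mm beans, and 173 and 176 in fully grown beans. The level was 48.7-fold lower in 2 mm beans with pods (adjusted p = 0.000264), 32.3-fold lower in 5 mm beans (adjusted p = 0.000518) and 18.8-fold lower in fully grown beans (adjusted p = 0.000654) than in elongating pods. Here too array 2 of 2 mm beans with pods was the higher one, at 16.5 times array 1. No change among the 3 later stages was called in this probe set, the closest being 1.38 in fully grown against 2 mm beans (adjusted p = 0.123). GmaAffx.89772.8.S1_at and GmaAffx.89772.8.S1_x_at, of the same gene, were dim, with means of 15.1 and 17.9 in elongating pods. Both were called lower in 2 mm and in 5 mm beans than in elongating pods. The first was called higher in fully grown than in 5 mm beans (0.65, adjusted p = 0.0189) and 2 mm beans (0.75, adjusted p = 0.00884). It was below background at these 3 stages, so no direction is given.

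Of the 6 other lipoxygenase genes found by symbol, LOX1.1, LOX2 and LOX3 were called higher and LOX7 and LOX9 lower in fully grown beans than in elongating pods, where 37.3% of all tested probe sets were called higher and 24.9% lower. LOX1.1, LOX2 and LOX3 encode the abundant seed lipoxygenases. LOX1.1 was below background on all arrays of elongating pods and 2 mm beans with pods and had 18967 and 19939 in fully grown beans, and its log2 change in fully grown against 5 mm beans was 9.10 (adjusted p = 3.6e-07). LOX2 and LOX3 rose by 6.65 and 8.44 in the same comparison. LOX7 had 4892 and 4888 in elongating pods, 2587 and 3084 in 2 mm beans with pods, 1974 and 1792 in 5 mm beans, and 67.6 and 145 in fully grown beans. LOX9 had 3978 and 3937 in elongating pods, 2295 and 2475 in 2 mm beans with pods, 2823 and 2802 in 5 mm beans, and 140 and 170 in fully grown beans.

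The lower level of LOX7 and LOX9 thus came mainly in the last step, with log2 changes of -4.03 and -4.05 in fully grown against 5 mm beans and of -0.79 and -0.73 in 2 mm beans with pods against elongating pods. Their elongating pod values lay about as high as those of the bright VSPA and VLXB probe sets. Their changes against elongating pods therefore carry the same limit of a possible ceiling, which was not tested. The brightest probe sets of the 4 members changed by -1.94 to -3.0 in 2 mm beans with pods against elongating pods, and the difference between the sets of genes was not tested. Over the whole course, in fully grown beans against elongating pods, LOX1.1, LOX2 and LOX3 changed by 9.76 to 9.98, LOX7 by -5.40 and LOX9 by -4.54. LOX10 had at most 13.8 on any array, was below background in fully grown beans, and was not called in that comparison (-0.09, adjusted p = 0.658). On the values as deposited 0 of the 6 were called in 2 mm beans with pods against elongating pods, so the first step of LOX7 and LOX9 is not given a direction. LOC547835, listed also as LOX1.4 and loxA and next to VLXC in gene order, was looked up after values had been seen. Its brightest probe set had 972 and 969 in elongating pods, 1630 and 1664 in 2 mm beans with pods, 796 and 647 in 5 mm beans, and 237 and 432 in fully grown beans, and was called higher in 2 mm beans with pods than in elongating pods (0.75, adjusted p = 0.0254). Its other 4 probe sets were not called in that comparison, with changes of -0.47 to 0.14, so the gene is given no direction there.

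Jasmonate is made from a lipoxygenase product by allene oxide synthase and allene oxide cyclase. Of 5 such genes found by symbol, 0 were called higher and 4 lower in fully grown beans than in elongating pods, with a median log2 change of -1.77, where 24.9% of all tested probe sets were called lower. AOC4 had 1550 and 1792 in elongating pods, 849 and 951 in 2 mm beans with pods, 538 and 421 in 5 mm beans, and 60.7 and 72.8 in fully grown beans, a change of -4.35 between the outer stages (adjusted p = 8.76e-08). AOC3 changed by -2.76, AOS2 by -1.77 and AOC6 by -1.23 in that comparison. AOS1 ran another way, with 136 and 153 in elongating pods, 482 and 334 in 2 mm beans with pods, 388 and 347 in 5 mm beans, and 144 and 125 in fully grown beans. In 2 mm beans with pods against elongating pods 1 of the 5 was called higher and 3 lower, but on the values as deposited 2 were called higher and 0 lower, so no direction is given for that step. COI1, the jasmonate receptor gene and the only response gene found by symbol, was called lower in fully grown beans than in elongating pods (-1.76, adjusted p = 5.1e-06), with 71.2 and 79.4 against 289 and 299.

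**Figure D4:**
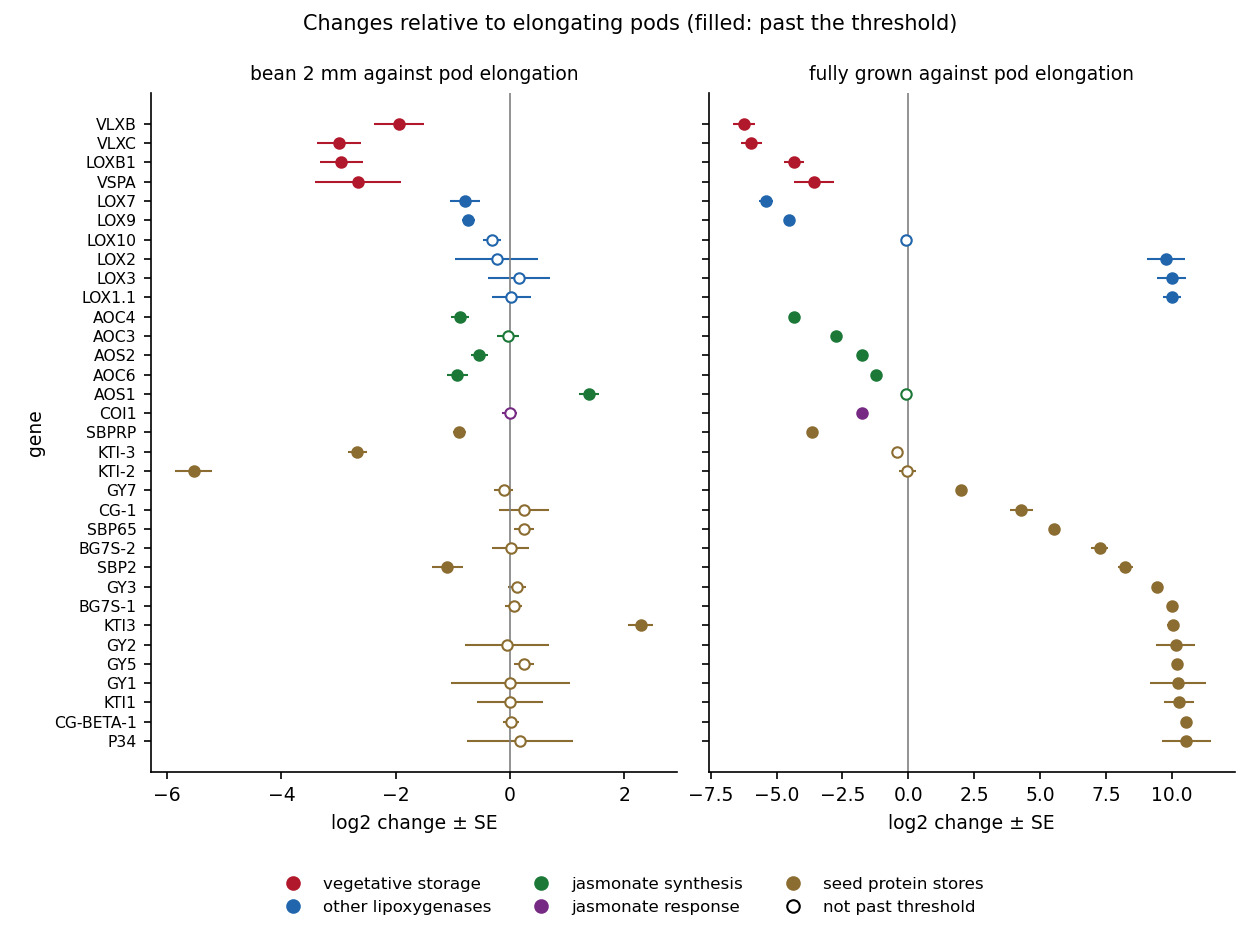
Log2 change with its standard error in 2 mm beans with pods (left) and in fully grown beans (right), each against elongating pods, for the brightest probe set of each gene, grouped by colour into the vegetative storage genes, other lipoxygenases, jasmonate synthesis and response genes and seed protein stores, filled where the change was called. The 4 vegetative storage genes lie left of 0 in both panels, and in fully grown beans 14 of 17 genes taken by symbol as seed protein stores and LOX1.1, LOX2 and LOX3 lie right of it.

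The protein stores of the seed ran opposite to the members in grown beans. Of 17 genes taken by symbol, 14 were called higher and 1 lower in fully grown beans than in elongating pods, with a median log2 change of 9.42, where 37.3% of all tested probe sets were called higher. Glycinins, conglycinins, basic 7S globulins, Kunitz inhibitors, P34 and the sucrose-binding protein gene SBP2 make up 15 of them, of which 13 were called higher and 0 lower. SBP65 and SBPRP were taken only because their symbols begin alike, and were set apart after their values were seen. The glycinin gene GY1 was below background on the arrays of elongating pods and 2 mm beans with pods and had 18279 and 20443 in fully grown beans. In 2 mm beans with pods against elongating pods 1 of the 17 was called higher and 4 lower, a share near the 20.4% called lower over all tested probe sets. The Kunitz inhibitor gene KTI-2 was among those 4, with 48.3 and 37.4 in 2 mm beans with pods against 2748 and 2654 in elongating pods, and it had 312 and 761 in 5 mm beans and 2392 and 2865 in fully grown beans. The 1 gene of the 17 called lower in fully grown beans was SBPRP, with 204 and 207 there against 2961 and 2640 in elongating pods.

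The genes with the most similar profiles were listed for each member by the Pearson correlation of log2(scaled signal + 16) over the 8 arrays, among 947 named genes, as a description. For VSPA they were SEOP (0.959), CYP76O2 (0.956), AP1A (0.937), WRKY60 (0.936) and EDS1-2 (0.932). CYP76O2, a cytochrome P450 gene, averaged 3070 in elongating pods, 292 in 2 mm beans with pods, 40.3 in 5 mm beans and 45.6 in fully grown beans. For VLXB they were NDR1b (0.987), the allene oxide synthase gene AOS2 (0.983), TIR1C, WRKY10 and PAP25. For VLXC they were GER10 (0.987), GLYI-17, WRKY23, ACS and WRKY39, and for LOXB1 they were GASA6 (0.99), WRKY6, SPK-2, MYB142 and ANN11. WRKY transcription factor genes, GER10 of the germin-like proteins and GASA6 of the gibberellin-regulated peptides all had their highest mean in elongating pods, GASA6 with 486 in elongating pods, 75.8 in 2 mm beans with pods, 9.23 in 5 mm beans and 16.2 in fully grown beans.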

How the data were processed

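Total RNA was labelled as biotinylated cRNA from 4 µg and hybridised to Affymetrix soybean arrays, per the labels' protocols. The authors deposited 1 linear signal intensity per probe set and array, for 61170 probe sets. The submitters' processing notes name MAS5 for the 4 arrays of fully grown and 5 mm beans. The sources used here do not give it for the remaining 4 arrays, so comparisons across these 2 sets of arrays cannot be told apart from a difference in program. The deposited medians lay between 24.1 and 138 and the 9 hybridization controls between 462 and 1032, so each array was scaled to a common median of 71.9 over the tested probe sets.

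Stage means were fitted to log2(scaled signal + 16) of all 8 arrays with limma 3.58.1 in R 4.3.3 (lmFit, eBayes with a trend), with 6 pairwise comparisons of stages, two-sided, each adjusted by Benjamini and Hochberg over 33625 probe sets. The script was tested on simulated data. Precision is limited by the number of arrays, and array signals have no read depth. A stage with both arrays at or below background has only a bound, and folds against it are given as "at least". The bound is the bright stage's geometric mean over the higher of the dim stage's own signal and background. It is taken without the added 16, so it is not on the scale of the other folds.

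Every probe set of the 4 genes is named, and other genes were taken by symbol from pathway and marker lists, the brightest tested probe set by mean over the 8 arrays standing for a gene. The genes and the lists were chosen with earlier results of these data known. Of 8677 probe sets with 1 gene, 8652 matched a gene of the RefSeq annotation, which was used for names and gene order only, and 370 probe sets with several genes and 28594 with none were not named. Replicate numbers did not pair the arrays: their deviations correlated between -0.05 and 0.10 across stages. Alternatives were the values as deposited, quantile normalization, scaling to the hybridization controls, a pseudocount of 1, no filter, the replicate number as a block, and leaving out each array.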

Additional observations from a re-analysis of the deposited data

How the results depend on the processing

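The 4 genes' brightest probe sets kept their lower level against elongating pods in sign under each alternative run. Counts of called members moved by over 1.5 times in these cases: 5 mm against 2 mm beans, 11 on the values as deposited, 7 with scaling to the hybridization controls and 0 to 6 with 1 array left out; fully grown against 5 mm beans, 7 and 11; fully grown against 2 mm beans, 13 and 13, and 3 to 9 with 1 array left out. Over all tested probe sets the count was 24420 in 2 mm beans against elongating pods (20475 higher, 3945 lower) and 24480 in 5 mm against 2 mm beans (734 higher, 23746 lower) as deposited, 28968 in fully grown against 5 mm beans with control scaling (615 higher, 28353 lower), and 29594 and 29830 in fully grown against 2 mm beans, mostly lower (28556 and 29054), where the scaled arrays gave 10506 higher and 7945 lower. The counts over all in fully grown beans against elongating pods were 24079 as deposited (2247 higher, 21832 lower) and 30716 with control scaling (892 higher, 29824 lower), against 12530 higher and 8374 lower on the scaled arrays. These settings shift the median of all tested probe sets, to -1.42 as deposited and -1.46 with control scaling in fully grown against 2 mm beans. With 1 array left out the count over all tested probe sets was 1264 to 11435 in 5 mm against 2 mm beans and 8254 to 17497 in 5 mm beans against elongating pods. With 1 array left out, log2 changes of either sign were found for VSPA in 5 mm against 2 mm beans (-1.99 to 0.67), fully grown against 5 mm beans (-1.01 to 0.48, and 0.062 without array 2 of 5 mm beans) and fully grown against 2 mm beans (-2.25 to 0.40), and for LOXB1 in fully grown against 5 mm beans (-0.048 to 1.39), where it was also -0.25 as deposited and -0.943 with control scaling (called). The replicate number as a block gave 11 called members in 2 mm and 11 in 5 mm beans against elongating pods, and changed the calls of GmaAffx.89726.1.S1_at only. The cause of these shifts was not tested.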

Other observations

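The source number 89772, which most VSPA probe sets carry, is shared by probe sets under other names. GmaAffx.89772.14.A1_s_at, annotated to the histone gene H4, averaged 954 in elongating pods, 45.2 in 2 mm beans with pods, 12.1 in 5 mm beans and 30.5 in fully grown beans, and its correlation with the VSPA probe set GmaAffx.89772.7.A1_at was 0.97 over the 8 arrays. Which transcripts it measures was not tested.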
